A study of Mus musculus with 31 samples.

Results

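The p53 target genes are 32 genes that textbook accounts place under the tumour suppressor p53, Trp53 itself among them, taken by gene symbol from a fixed list. All 32 had a row among the 38406 gene rows of the count tables. They were followed in 31 bulk RNA-seq libraries of CD45.2+ cells, the pan-leukocyte population, sorted from AT3-OVA tumours, a mouse triple-negative mammary carcinoma line carrying ovalbumin, grown in the mammary fat pad of wild-type female C57BL/6 mice. Tumours received local electron-beam radiotherapy as 3 fractions of 4 Gy (3x4Gy) or 1 fraction of 20 Gy (1x20Gy), and mock groups (3x0Gy, 1x0Gy) were not irradiated; all mice had ketamine and xylazine anaesthesia. At day 5 after the last fraction there were 6 libraries of 3x4Gy, 4 of 3x0Gy, 6 of 1x20Gy and 4 of 1x0Gy. At day 13 there were 7 libraries of 1x20Gy and 4 of 1x0Gy. The ages of the mice and the number of animals behind a library are not given in the labels, so p-values measure the spread between these libraries. The library codes change between the days, so levels were compared only within a day, and the days only through each day's own difference from mock.

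p53 is a transcription factor that is held low by the ubiquitin ligase MDM2 and its relative MDM4, and that is stabilised when kinases such as ATM sense broken DNA. Its targets include the p21 gene Cdkn1a, which stops cyclin-dependent kinases, genes of apoptosis, repair and stress metabolism, and Mdm2 itself, which closes a feedback loop. Lymphocytes are a textbook example of cells that die through p53 after irradiation.

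p53 binds DNA as pairs of a short element, the p53 half-site consensus, and windows around the gene starts were searched for it because the members are defined as p53 targets. Windows ran from 250 bases before to 50 after each RefSeq gene start (build GRCm38.p6), and both strands were read, on which this consensus is the same. Of the 32 members, 24 had at least 1 window, and 11 of these (45.8%) held the element, against 9.55% of the 27025 genes with a window. Counted by window, it stood in 12 of 32 member windows (37.5%) and in 8.36% of all 32851 windows. The windows below are those of Cdkn1a, with 2 elements and the clearest rise in both regimens, of Mdm2 and Aen, with 1 each and a rise at day 5, and of Sesn2, which rose after 3x4Gy and held none in its window. Capitals mark the element. The windows are chr17:29090729-29091028 (plus strand), chr10:117710709-117711008 (minus strand), chr7:78895677-78895976 (plus strand) and chr4:132510407-132510706 (minus strand).
Cdkn1a: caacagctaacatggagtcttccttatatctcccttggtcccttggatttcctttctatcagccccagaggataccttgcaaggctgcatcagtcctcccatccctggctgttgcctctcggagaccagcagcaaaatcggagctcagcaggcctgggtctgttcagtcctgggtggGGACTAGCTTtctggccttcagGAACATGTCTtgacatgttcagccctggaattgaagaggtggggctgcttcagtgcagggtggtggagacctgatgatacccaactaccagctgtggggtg
Mdm2: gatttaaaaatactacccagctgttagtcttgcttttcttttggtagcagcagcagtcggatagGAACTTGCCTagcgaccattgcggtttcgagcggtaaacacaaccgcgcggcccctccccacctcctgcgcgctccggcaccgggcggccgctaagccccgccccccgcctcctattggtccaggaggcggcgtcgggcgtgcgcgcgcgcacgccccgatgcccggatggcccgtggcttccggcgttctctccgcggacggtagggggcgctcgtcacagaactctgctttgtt
Aen: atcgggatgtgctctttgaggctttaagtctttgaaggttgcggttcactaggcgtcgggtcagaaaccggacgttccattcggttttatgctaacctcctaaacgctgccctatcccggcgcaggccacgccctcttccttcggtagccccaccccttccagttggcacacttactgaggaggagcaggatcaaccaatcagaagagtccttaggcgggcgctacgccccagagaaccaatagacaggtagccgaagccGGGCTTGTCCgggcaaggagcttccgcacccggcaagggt
Sesn2: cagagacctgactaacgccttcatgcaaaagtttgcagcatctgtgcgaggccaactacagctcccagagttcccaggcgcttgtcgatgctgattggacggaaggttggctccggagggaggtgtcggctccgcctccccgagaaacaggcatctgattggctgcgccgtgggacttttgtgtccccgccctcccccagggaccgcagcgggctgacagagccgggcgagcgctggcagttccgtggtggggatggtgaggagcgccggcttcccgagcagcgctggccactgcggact
A second listed start of Cdkn1a, with the window chr17:29093519-29093818, held no element, and the second window of Aen, which overlaps the one shown, held 1. In the Cdkn1a window shown the elements began at positions -73 and -51 from the start, in Mdm2 at -186, and in Aen at 10. Polk, Ccng1, Trp53, Ei24, Sesn1, Rps27l, Ddit4l and Ckap2 also held the element, and the windows of Phlda3 and Apaf1 did not. A match is a description of letters, not a bound site. Trp53inp1, Zmat3, Tnfrsf10b, Ddb2, Xpc, Rrm2b, Perp and Pvt1 had no window in the table.

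Libraries held 2641229 to 7541144 counts in genes. Leukocyte markers were read in every library: the summed level of the markers Ptprc, Cd52, Coro1a, Laptm5 and Cd53 was 2567 to 5411 CPM (gene counts per fixed library total, scaled by trimmed mean of M-values, TMM, within each day), and keratins, Epcam and collagens were also read. The leukocyte sum was 3884 to 5216 CPM in 3x4Gy against 2567 to 3537 in 3x0Gy, and 4109 to 5062 in 1x20Gy against 3875 to 4023 in 1x0Gy at day 5, without overlap in either. After 3x4Gy, 2 of 5 leukocyte, 2 of 8 dendritic cell, 1 of 5 monocyte, 1 of 11 T cell and 1 of 3 endothelial markers were called higher. Called lower were 1 of 5 NK cell and 2 of 2 erythroid markers. Of 9 macrophage markers 0 were called (median log2 fold change -0.50). Over all genes tested, 5.2% were called higher and 7.09% lower. At day 5 the 11 epithelial and tumour markers summed to 176 to 790 CPM in 3x4Gy against 507 to 1152 in 3x0Gy, and to 159 to 536 in 1x20Gy against 444 to 644 in 1x0Gy. The 10 fibroblast and matrix markers summed to 19.0 to 53.9 CPM against 229 to 652, and to 15.5 to 73.2 against 111 to 354. Within 3x4Gy the libraries parted. The epithelial and tumour markers summed to 475 to 790 CPM in replicates 1, 2 and 3 and to 176 to 230 CPM in replicates 4, 5 and 6. In the same order, neutrophil markers summed to 12.9 to 26.8 CPM and to 139 to 198 CPM. One 3x0Gy library, replicate 2, stood apart, with 5.66% of its reads outside genes, against a median of 18.6% in its group. That share had a median of 23.7% in 3x4Gy, and it was 17.6% to 28.8% in 1x20Gy against 15.9% to 18.4% in 1x0Gy at day 5. A single gene row named for a genomic clone took a median of 7.41% of gene counts in 3x4Gy against 3.43% in 3x0Gy, 12.4% in 1x20Gy against 3.75% at day 5, and 21.5% against 9.92% at day 13. Except for the split within 3x4Gy, these values moved with the groups compared. Beyond the fits with a covariate given below, their part in the member results was not tested, nor was that of the split. In such bulk libraries, fewer cells of a type and less RNA per cell cannot be told apart.

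In the mock tumours at day 5, the best expressed members per length of exon were Rps27l, Btg2, Cdkn1a and Mdm2. In 1x0Gy, Rps27l, a ribosomal protein relative with near copies in the genome, had 211 ± 18.6 CPM per kb (SD, n = 4). Btg2, an antiproliferative gene, had 131 ± 7.45 CPM per kb. Cdkn1a had 100.4 ± 6.15 CPM per kb and Mdm2 42.0 ± 11.2 CPM per kb, each below the one before it by more than the spread. Further down the order, Gdf15 (27.1 ± 5.13 CPM per kb), Ccng1 (17.8 ± 0.842) and Dcxr (15.7 ± 3.86) came next, and the last pair did not differ beyond their spread. Trp53 stood at rank 19 with 2.90 ± 0.479 CPM per kb, and Eda2r came last with 0.130 ± 0.102 CPM per kb. The order began with the same 4 genes in 3x0Gy, where the spread was wider: Btg2 had 178 ± 42.6 CPM per kb and Cdkn1a 87.2 ± 27.8.

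The first question was whether the members differed between 3x4Gy tumours and their mocks at day 5. Cdkn1a, Sesn2 and Mdm2 rose and Perp fell among 31 members tested, where a gene is called at an adjusted p below 0.05 in edgeR's quasi-likelihood test with Benjamini-Hochberg adjustment over all genes. Cdkn1a was the 1 called of 6 cell-cycle members, whose median log2 fold change was -0.25, and Trp53 itself was not called. Of all 12021 genes tested, 5.2% were called as higher and 7.09% as lower, so 3 of 31 higher and 1 of 31 lower are to be read against those shares. The members were chosen with earlier results of these data known, so such counts, here and below, may partly reflect that choice. The median log2 fold change was 0.03 over the members and 0.00 over all genes (-0.004), and 16 of the 31 members had a positive value.

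Cdkn1a (chr17:29090976-29100727, plus strand) encodes p21, the inhibitor of cyclin-dependent kinases through which p53 halts division. Its level was 433, 193.5, 289 and 324 CPM in the 4 libraries of 3x0Gy, and 630.2 to 1030 CPM with a median of 885 in 3x4Gy. Every irradiated library lay above every mock library, and the 3x0Gy library that stands apart held the lowest value. The level was 2.71-fold higher (log2 fold change 1.44, SE 0.19, adjusted p = 4.05e-05), and without that library the log2 fold change was 1.27 (adjusted p = 6.27e-05). In the 10 fits that leave out 1 library each, the log2 fold change ran from 1.27 to 1.64 and the call held in all 10. With a covariate built from the epithelial and fibroblast markers it was 1.31 (adjusted p = 0.0212). This covariate, a mean of log2 CPM, was 1.815 to 3.98 in 3x4Gy and 4.496 to 5.479 in 3x0Gy. At day 5 it was 1.811 to 3.664 in 1x20Gy and 3.802 to 4.96 in 1x0Gy. As neither irradiated group overlapped its mock, fits with it at day 5 cannot separate these markers from treatment, and SEs widen. In 273 bases the exons of Cdkn1a overlap those of AC167363.2 on the other strand, and whether counting used strand is not given in the sources used here.

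Sesn2 (chr4:132492032-132510501, minus strand) encodes sestrin 2, a stress protein that restrains mTORC1 and is a target of ATF4 as well as p53. It stood at 18.8, 14.3, 17.1 and 11.3 CPM in 3x0Gy, and at 20.9 to 50.6 CPM with a median of 30.2 in 3x4Gy. The groups did not overlap, and replicate 1 of 3x4Gy was the highest. The rise was 2.13-fold (log2 fold change 1.09, SE 0.23, adjusted p = 0.00351), and it held in each of the 10 fits without 1 library. With the marker covariate its log2 fold change was 1.17 and the call ended (adjusted p = 0.0866).

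Mdm2 (chr10:117688875-117710758, minus strand), the ligase that marks p53 for destruction, had 203, 291, 141 and 188 CPM in 3x0Gy and 283 to 342 CPM with a median of 305 in 3x4Gy. The groups overlapped through the 3x0Gy library that stands apart, which held 291 CPM. The rise was 0.59 on the log2 scale (SE 0.17, adjusted p = 0.0273). Without that library it was 0.80 (adjusted p = 0.002), and the call ended in 4 of 10 fits without 1 library: those without replicate 4 of 3x4Gy or replicates 1, 3 or 4 of 3x0Gy. It also ended with the marker covariate (log2 fold change 0.55, adjusted p = 0.295) and with only these groups in the fit (0.58, adjusted p = 0.0802).

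Perp (chr10:18845020-18857073, plus strand), a membrane protein of epithelial junctions that is also a p53 effector of apoptosis, had 22.7, 17.7, 13.2 and 18.0 CPM in 3x0Gy. In 3x4Gy it had 1.31 to 13.1 CPM with a median of 5.86, and the highest value lay just below the lowest mock. The 3x4Gy libraries parted as their epithelial markers did, with raw Perp counts of 35, 83 and 56 in replicates 1, 2 and 3. Replicates 4, 5 and 6 held 10, 11 and 6 counts. The log2 fold change of Perp was -1.43 (SE 0.43, adjusted p = 0.0312). Its call ended in 6 of 10 fits without 1 library (replicates 4, 5 and 6 of 3x4Gy, replicates 1, 2 and 4 of 3x0Gy). Perp moved with the epithelial and fibroblast markers given above, of which 3 of 11 and 7 of the 7 tested fell after 3x4Gy (6 of 11 and 3 of 7 after 1x20Gy at day 5). With these markers as a covariate, the log2 fold change of Perp was -0.18 (adjusted p = 0.871), and with the share of reads outside genes it was -1.06 (adjusted p = 0.264). As the marker covariate did not overlap between these groups, that fit cannot separate the markers from treatment.

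Trp53 (chr11:69580359-69591873, plus strand), the transcript of p53 itself, had 11.5, 4.09, 15.4 and 14.7 CPM in 3x0Gy and 9.67 to 22.5 CPM with a median of 18.2 in 3x4Gy. The groups overlapped, and the log2 fold change of 0.46 (SE 0.31, adjusted p = 0.346) was not called. Mdm4 (chr1:132959484-133030561, minus strand), which blocks the activity of p53, had 13.9, 8.18, 13.7 and 16.1 CPM in 3x0Gy and 11.7 to 25.3 CPM with a median of 17.1 in 3x4Gy. Its ranges overlapped too, and the value of 0.46 on the log2 scale was not called (SE 0.27, adjusted p = 0.261).

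**Figure D1:**
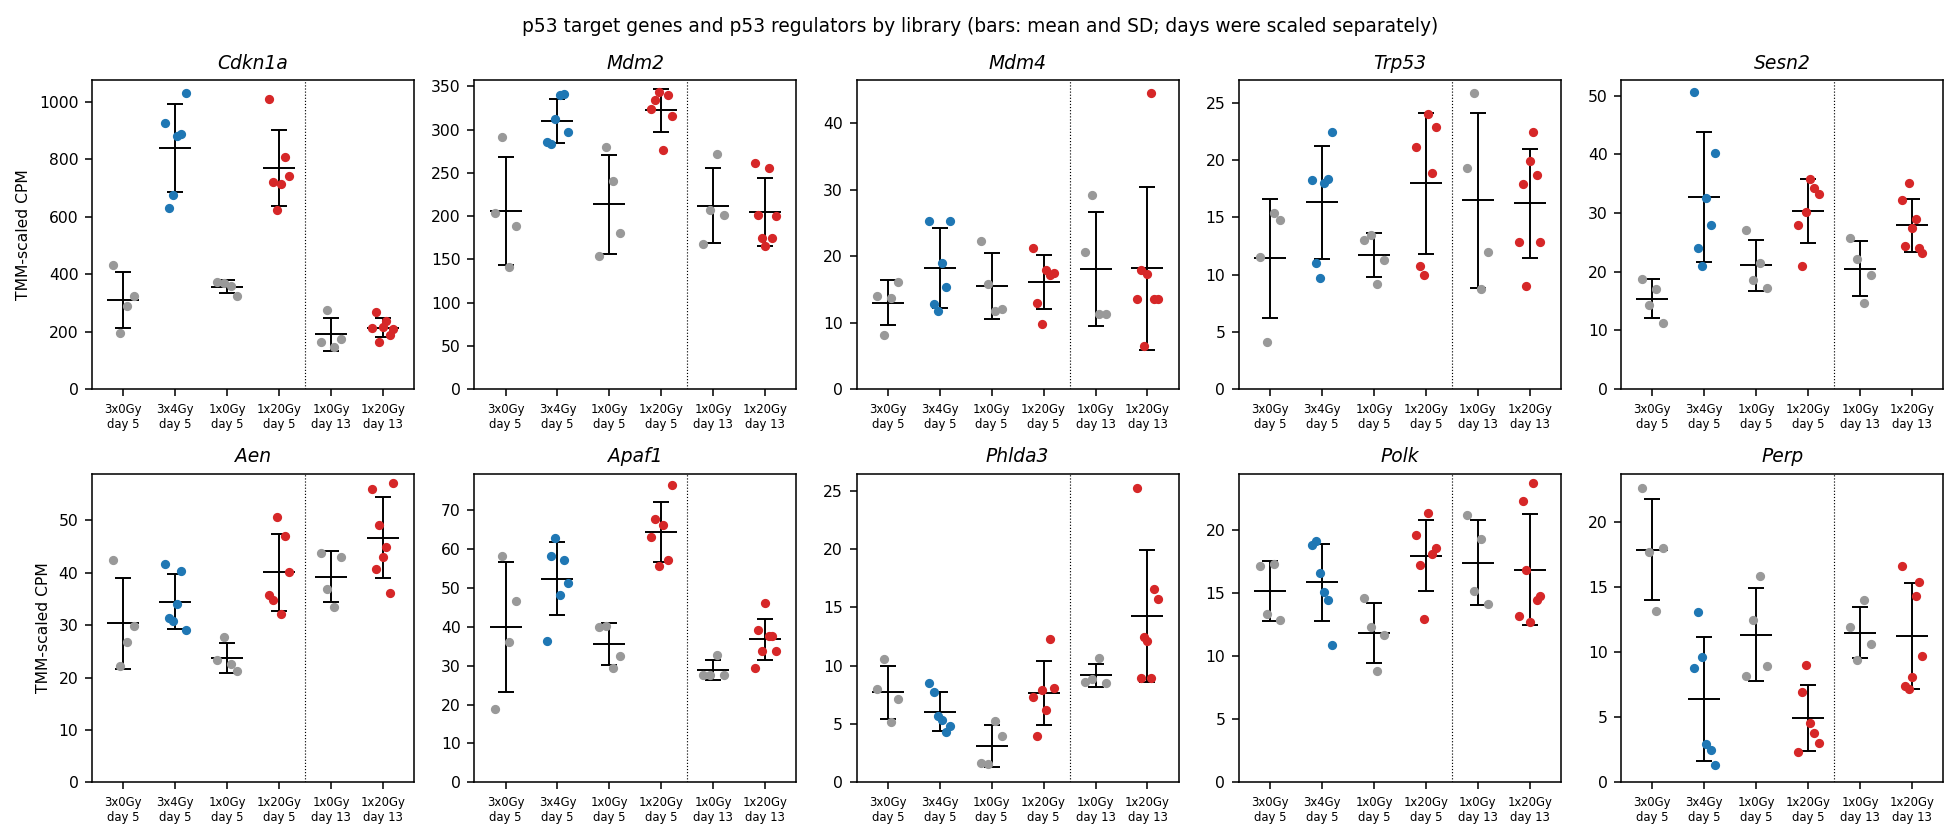
Levels of 10 p53 target genes and regulators in each of the 31 libraries, in TMM-scaled CPM on linear axes that start at 0; points are libraries, grey for mock, blue for 3x4Gy and red for 1x20Gy, bars give the mean and SD, and the dotted line parts the days, which were scaled separately. Cdkn1a is above every mock library in both irradiated groups at day 5, at 630.2 to 1030 and 624 to 1011 CPM, and overlaps its mock at day 13.

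Of the 10 apoptosis and death receptor members tested after 3x4Gy, 0 were called higher and 1, Perp, lower. Apaf1, the core of the apoptosome, had a log2 fold change of 0.39 (adjusted p = 0.229), Aen, a nuclease of apoptosis, 0.19 (adjusted p = 0.494), and Phlda3, an inhibitor of AKT, -0.31 (adjusted p = 0.561). Among repair genes, Xpc, which recognises damaged DNA in nucleotide excision repair, lay above every mock library in all 6 libraries of 3x4Gy (7.56 to 10.5 CPM against 4.77 to 7.19), yet was not called (log2 fold change 0.62, adjusted p = 0.0549). Groups that did not overlap in this way made up 3.91% of all genes above and 5.67% below, against 3 members above (Cdkn1a, Sesn2, Xpc) and 1 below (Perp). Of low members, Ddit4l had a log2 fold change of -1.31 (adjusted p = 0.0714) with at most 8.99 CPM in any library, and Eda2r was not tested, at 0 to 3.00 CPM over all groups.

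The second question was the same for the single dose of 20 Gy at day 5. Cdkn1a, Phlda3, Apaf1, Aen, Mdm2 and Polk rose, and no member fell, among the 31 tested. By role these were the cell-cycle inhibitor, 3 members of apoptosis and survival signalling, the feedback inhibitor, and Polk, from DNA synthesis across lesions. Of all 12021 genes tested, 3.67% were called as higher and 4.88% as lower. The median log2 fold change was 0.19 over the members and 0.02 over all genes, and 21 of 31 members had a positive value.

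Cdkn1a had 374, 369, 358 and 326 CPM in the 4 libraries of 1x0Gy, and 624 to 1011 CPM with a median of 731 in 1x20Gy. The groups did not overlap, and replicate 1 of 1x20Gy was the highest. The rise was 2.16-fold (log2 fold change 1.11, SE 0.19, adjusted p = 0.000802), and it held in all 10 fits without 1 library. With the marker covariate the log2 fold change was 0.99 and the call ended (adjusted p = 0.0823).

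Aen (chr7:78895854-78911209, plus strand), an exonuclease that p53 induces and that degrades DNA in dying cells, had 23.4, 27.8, 22.6 and 21.3 CPM in 1x0Gy and 32.1 to 50.7 CPM with a median of 38.0 in 1x20Gy. No irradiated library overlapped the mocks. Aen rose by 0.75 on the log2 scale (SE 0.17, adjusted p = 0.00801), and it was the one member called in every alternative setting and in every fit without 1 library in this comparison. With the marker covariate it was 1.02 (adjusted p = 0.0351).

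Apaf1 (chr10:90989311-91082770, minus strand), which assembles the apoptosome that activates caspase 9, had 39.8, 40.3, 29.5 and 32.6 CPM in 1x0Gy and 55.6 to 76.4 CPM with a median of 64.6 in 1x20Gy. All irradiated libraries lay above all mocks. Apaf1 rose by 0.85 on the log2 scale (SE 0.21, adjusted p = 0.0129), and the call ended without replicate 3 or replicate 4 of 1x0Gy. With the marker covariate it was 0.52 (adjusted p = 0.425).

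Phlda3 (chr1:135766119-135769136, plus strand), which displaces AKT from the membrane, had 1.66, 1.60, 5.24 and 3.94 CPM in 1x0Gy and 4.00 to 12.32 CPM with a median of 7.59 in 1x20Gy. The ranges overlapped, and the 2 lowest mock libraries lay under the rest. Phlda3 rose by 1.31 on the log2 scale (SE 0.34, adjusted p = 0.0192), the largest among the members here, and the call ended without replicate 5 of 1x20Gy or replicates 1 or 2 of 1x0Gy. With the marker covariate it was 2.25 (adjusted p = 0.0151). Its level in 3x0Gy, at 8.02, 10.6, 5.14 and 7.13 CPM, lay inside the range of 1x20Gy, with 1 library also inside that of 1x0Gy. Set directly against 1x0Gy, 3x0Gy had a log2 fold change of 1.30 for Phlda3 (unadjusted p = 0.00226, adjusted p = 0.836 in edgeR's test).

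Mdm2 had 154, 279, 240 and 181 CPM in 1x0Gy and 277 to 343 CPM with a median of 329 in 1x20Gy, with 1 mock library inside the irradiated range. The log2 fold change was 0.59 (SE 0.17, adjusted p = 0.0331), close in size to that after 3x4Gy. The call ended in 8 of 10 fits without 1 library, all but those without replicate 4 of 1x20Gy or replicate 2 of 1x0Gy, with adjusted p up to 0.138. Polk (chr13:96480690-96542579, minus strand), a polymerase that copies past damaged bases, had 14.6, 12.303, 8.84 and 11.6 CPM in 1x0Gy and 13.0 to 21.3 CPM with a median of 18.3 in 1x20Gy. One irradiated library lay inside the mock range. Its log2 fold change was 0.59 (SE 0.18, adjusted p = 0.0438), and this call ended in 8 of 10 fits, all but those without replicate 3 of 1x20Gy or replicate 1 of 1x0Gy. Neither call held with the marker covariate, at 0.56 for Mdm2 and 0.60 for Polk (adjusted p = 0.313 for each). With the share of reads outside genes as covariate, that of Polk ended too (0.42, adjusted p = 0.23).

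Trp53 had 13.0, 13.4, 9.17 and 11.3 CPM in 1x0Gy and 9.95 to 24.1 CPM with a median of 20.0 in 1x20Gy. The values of 4 irradiated libraries lay above all mocks and those of the other two inside their range (log2 fold change 0.60, SE 0.31, adjusted p = 0.241). Mdm4 had 22.3, 15.8, 11.8 and 12.0 CPM in 1x0Gy against 9.76 to 21.1 CPM with a median of 17.3, and its log2 fold change was 0.04 (SE 0.26, adjusted p = 0.958). Perp had 8.17, 12.5, 15.9 and 8.95 CPM in 1x0Gy and 2.35 to 9.01 CPM with a median of 4.20 in 1x20Gy. This gave -1.16 on the log2 scale, not called (SE 0.43, adjusted p = 0.103). With only these groups in the fit, Perp was called as lower (adjusted p = 0.029 in edgeR's test). Sesn2 had 27.1, 18.5, 21.5 and 17.2 CPM in 1x0Gy and 20.9 to 35.7 CPM with a median of 31.7 in 1x20Gy (log2 fold change 0.52, SE 0.22, adjusted p = 0.154).

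Members whose libraries all lay above the mocks in this comparison were Cdkn1a, Aen, Apaf1, Ccng1 and Trp53inp1, 5 of 31, where 5.44% of all genes did so, and 0 of 31 lay below all mocks, where 6.07% of all genes did. Ccng1, the cyclin G1 gene, had 68.1 to 90.0 CPM in 1x20Gy and 58.4 to 65.0 CPM in 1x0Gy (log2 fold change 0.35, adjusted p = 0.124). Trp53inp1, an autophagy and death factor, had 38.3 to 63.5 CPM against 24.4 to 37.7 CPM (log2 fold change 0.46, adjusted p = 0.27). Neither was called. The death receptors Fas and Tnfrsf10b had log2 fold changes of 0.62 (adjusted p = 0.111) and 0.60 (adjusted p = 0.448), and the repair genes Ddb2, Xpc, Ercc5 and Rrm2b ran from -0.26 to 0.48 without a call.

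**Figure D2:**
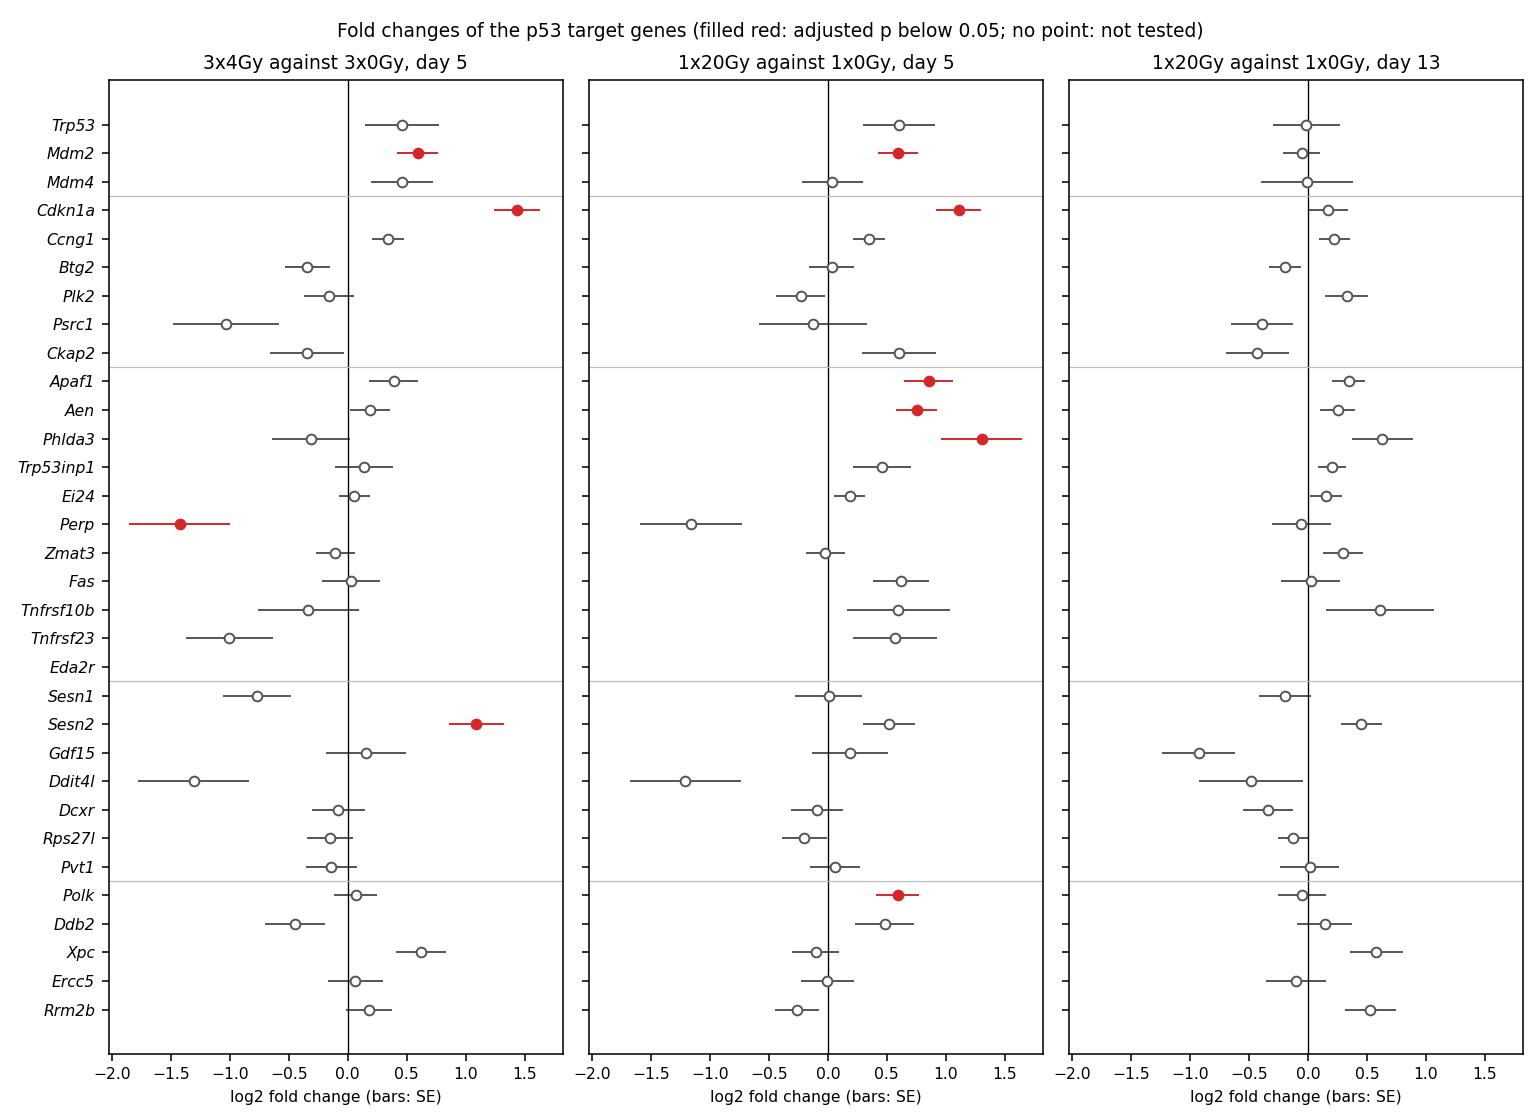
Log2 fold change of each member against its own mock in the 3 comparisons, ordered by role (p53 and its inhibitors, cell cycle, apoptosis and death receptors, stress and metabolism, repair and synthesis); bars give the SE, filled red points had an adjusted p below 0.05, and a member with no point was not tested. There are 4 called members after 3x4Gy, 6 after 1x20Gy at day 5 and 0 at day 13.

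Whether the regimens differed was tested as the difference between the 2 responses at day 5. No member was called among 31, and 0 of 12021 genes were (0% called); 6 members had an unadjusted p below 0.05, and neither DESeq2 nor limma voom called a member. For Cdkn1a the response to 3x4Gy exceeded that to 1x20Gy by 0.33 on the log2 scale (95% confidence interval -0.21 to 0.86, adjusted p = 0.834), and for Mdm2 the difference was -0.00 (-0.001, interval -0.50 to 0.50). Sesn2, called after 3x4Gy and not after 1x20Gy, differed by 0.57 (interval -0.09 to 1.23, adjusted p = 0.808). Members called after 1x20Gy and not after 3x4Gy differed by -0.57 for Aen (interval -1.07 to -0.07), -0.47 for Apaf1 (-1.08 to 0.15), -0.52 for Polk (-1.06 to 0.01) and -1.61 for Phlda3 (-2.60 to -0.63). The smallest adjusted p among members was 0.736, for Phlda3 and Tnfrsf23. A p above the threshold does not show that the regimens act alike. The mock groups 3x0Gy and 1x0Gy differed in no member either (0 of 12021 genes, 0%), with 3 members, Phlda3, Btg2 and Rrm2b, at an unadjusted p below 0.05 in edgeR and 0 called by DESeq2 or limma voom. In Btg2 all 4 libraries of 3x0Gy (389 to 652 CPM) lay above all 4 of 1x0Gy (332 to 378 CPM), 1 of 31 members where 2.04% of all genes did so; 0 of 31 lay below, where 1.76% did.

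**Figure D3:**
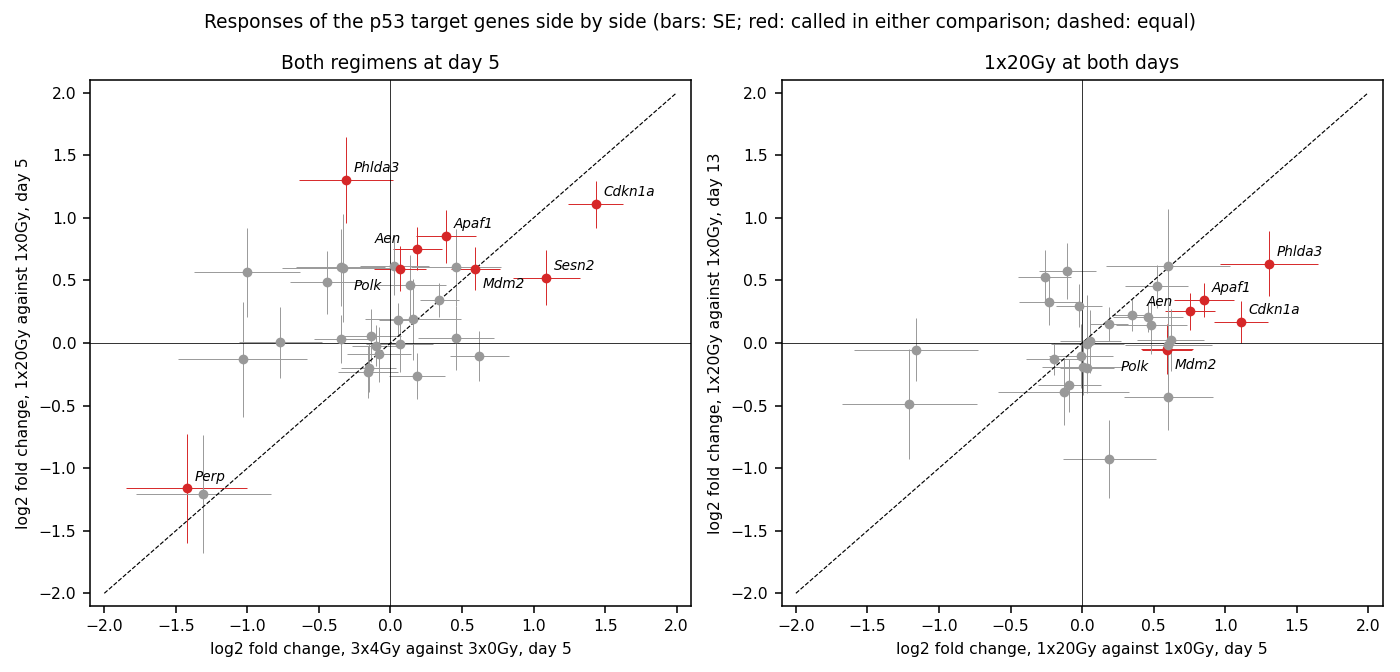
Log2 fold changes of the members in pairs of comparisons, 3x4Gy and 1x20Gy at day 5 on the left and 1x20Gy at day 5 and day 13 on the right; bars give the SE, red marks members called in either comparison of the panel and the dashed line marks equal values. Cdkn1a sits at 1.44 and 1.11 on the left, and at 1.11 and 0.17 on the right.

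At day 13 after 1x20Gy no member was called. Of 30 members tested, 0 passed, with 6 at an unadjusted p below 0.05 and 0 by DESeq2 or limma voom, while 8.05% of the 11071 genes tested were called, 4.22% as higher and 3.83% as lower. The median log2 fold change was 0.02 over the members and 0.01 over all genes. No member had groups that did not overlap, against 3.31% of all genes above and 3.97% below.

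Cdkn1a at day 13 had 164, 276, 145 and 175 CPM in 1x0Gy and 165 to 269 CPM with a median of 211 in 1x20Gy. The irradiated values lay inside the range of the mocks. The log2 fold change was 0.17 (SE 0.17, 95% confidence interval -0.19 to 0.53, adjusted p = 0.598), and with scaling by library size alone it was -0.04. Mdm2 had 168, 207, 272 and 201 CPM in 1x0Gy and 166 to 261 CPM with a median of 201 in 1x20Gy, which gave -0.05 on the log2 scale (SE 0.16, adjusted p = 0.88). Trp53 had 19.3, 25.9, 8.78 and 12.0 CPM against 9.02 to 22.5 CPM with a median of 17.9 (log2 fold change -0.01, adjusted p = 0.987).

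None of the 9 apoptosis and death receptor members tested at day 13 was called, and their log2 fold changes ran from -0.06 to 0.63. Aen had 43.8, 37.0, 33.5 and 43.0 CPM in 1x0Gy and 36.2 to 57.1 CPM with a median of 44.9 in 1x20Gy (log2 fold change 0.25, SE 0.15, adjusted p = 0.329). Apaf1 had 27.6, 27.5, 32.8 and 27.7 CPM against 29.4 to 46.0 CPM with a median of 37.6 (log2 fold change 0.35, SE 0.14, adjusted p = 0.139). Phlda3 had 8.58, 8.90, 10.7 and 8.55 CPM against 8.95 to 25.3 CPM with a median of 12.4 (log2 fold change 0.63, SE 0.26, adjusted p = 0.151). In each the ranges overlapped, although no irradiated library lay below the lowest mock. With the marker covariate Phlda3 passed (log2 fold change 1.09, adjusted p = 0.0482). At day 13, however, the lists averaged in it went opposite ways, with median log2 fold changes of 0.64 (epithelial) and -1.72 (fibroblast). The covariate was 3.677 to 4.882 in 1x20Gy and 4.51 to 4.755 in 1x0Gy, so that fit adjusts for neither list alone.

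Gdf15, a secreted stress cytokine that p53 and ATF4 both induce, had the smallest adjusted p at day 13 and is described for that reason, after its values were seen. It had 41.4, 20.5, 41.0 and 39.0 CPM in 1x0Gy and 6.22 to 32.5 CPM with a median of 17.9 in 1x20Gy. All 7 irradiated libraries lay below 3 of the 4 mocks, and replicate 2 of the mock lay inside their range. Its log2 fold change was -0.93 (SE 0.31, adjusted p = 0.0783). At day 5 its log2 fold changes were 0.16 after 3x4Gy and 0.19 after 1x20Gy (adjusted p = 0.789 and 0.79). Of the remaining members Perp had 11.95, 9.44, 14.01 and 10.6 CPM in 1x0Gy and 7.15 to 16.6 CPM in 1x20Gy at day 13 (log2 fold change -0.06). The epithelial markers then summed to 781 to 2304 CPM against 713 to 955, with 3 of 10 tested called higher and 1 lower. The fibroblast and matrix markers summed to 16 to 52 CPM against 120 to 203 without overlap, with 5 of 7 tested called lower. Sesn2 (log2 fold change 0.45), Xpc (0.58) and Rrm2b (0.53), the p53-inducible ribonucleotide reductase subunit, had unadjusted p below 0.05 and no call. Mdm4 (-0.01) and Polk (-0.05) were close to 0, and Tnfrsf23 was not tested.

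Persistence was judged by the 1x20Gy response at day 13 minus that at day 5. No member was called among 31 tested, where 0.423% of 12061 genes were called, and 9 members had an unadjusted p below 0.05 in edgeR. For Cdkn1a the difference was -0.92 (SE 0.25, 95% confidence interval -1.44 to -0.40), with an adjusted p of 0.0906 in edgeR, 0.107 in limma voom and 0.0355 in DESeq2, the last being a call. Over the 21 fits without 1 library it ran from -1.02 to -0.69. The difference was -0.63 for Mdm2 (adjusted p = 0.223), -0.62 for Polk (0.296), -0.48 for Aen (0.383), -0.49 for Apaf1 (0.454) and -0.65 for Phlda3 (0.609). Day and experiment cannot be told apart here.

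Other genes of the p53 pathway were followed as lists that share no gene with the members. Their counts, here and in the next paragraphs, are to be read against the shares of all genes called. These were 5.2% higher and 7.09% lower after 3x4Gy, and 3.67% and 4.88% after 1x20Gy at day 5. At day 13 they were 4.22% and 3.83%. Of 25 further p53 targets, 3 rose and 3 fell after 3x4Gy, with a median log2 fold change of -0.09. Bax, the pore-forming death protein, rose by 1.22 on the log2 scale (13.5 ± 4.19 CPM in 3x0Gy and 32.4 ± 7.85 CPM in 3x4Gy, SD, n = 4 and 6, adjusted p = 0.00052), and Ass1 by 1.03. Kitl, the KIT ligand made by stromal cells, fell by 2.31, and Lif fell by 1.45. After 1x20Gy at day 5, 1 of 25 rose (Trp53i11, 1.13) and 1 fell (Kitl, -2.37), with a median of 0.18. At day 13, 2 of 24 tested rose, Bax (0.60, adjusted p = 0.0354) and Bid (0.70), its partner in the mitochondrial death pathway, and Kitl fell (-1.64), with a median of 0.05.

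Of 24 genes that sense and signal DNA damage upstream of p53, 1 rose (Brca1, 0.85) and 1 fell (Xrcc5, -0.77) after 3x4Gy, and no gene was called after 1x20Gy at day 5 or day 13 (2 and 4 at an unadjusted p below 0.05 in edgeR). Their medians were 0.25, 0.10 and 0.03.

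Mitosis genes are textbook targets of repression through p21 and the DREAM complex. Of 22, 4 rose and none fell after 3x4Gy, Mki67 by 0.99, Cenpe by 0.71, Nusap1 by 0.58 and Tpx2 by 0.54, with a median of 0.30. After 1x20Gy at day 5, 8 of 22 rose and all 22 had a positive value, with a median of 0.58. Ube2c, which feeds cyclins to destruction at the end of mitosis, went from 33.4 ± 5.37 CPM to 73.3 ± 17.9 CPM (SD, n = 4 and 6, log2 fold change 1.13, adjusted p = 0.000799), and Plk1, Mybl2 and Birc5 rose by 1.04, 1.02 and 0.88. Cdkn1a and these genes thus rose in the same bulk samples, which do not show whether in the same cells. At day 13, 1 of 22 fell (Cdk1, -0.64) and 3 of 22 had a positive value, with a median of -0.27. Markers of cell types differed too. T cell markers summed to 406 to 1123 CPM in 1x20Gy against 211 to 672 CPM in 1x0Gy at day 5. Of these, 3 of 11 tested were called higher. Monocyte markers summed to 546 to 1746 against 408 to 919 CPM, with 1 of 5 called. In this comparison 1 of 7 neutrophil (median log2 fold change 2.36), 1 of 8 dendritic cell and 1 of 3 endothelial markers were also called higher. Called lower were 2 of 2 erythroid markers, while 0 of 9 macrophage and 0 of 5 NK cell markers were called. At day 13, 5 of 11 T cell, 4 of 5 NK cell and 3 of 5 neutrophil markers were called higher and 4 of 9 macrophage markers lower. Their part in the member results was not tested.

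Of 7 other genes for inhibitors of cyclin-dependent kinases, 5 were tested. Cdkn2a, the p16 and p19ARF gene, fell after both regimens at day 5, by 1.58 after 3x4Gy (adjusted p = 0.00431) and by 1.43 after 1x20Gy (adjusted p = 0.0113), opposite in direction to Cdkn1a, and no gene of the list was called at day 13 (1 at an unadjusted p below 0.05 in edgeR). Sesn2 and Gdf15 are also known targets of ATF4, the factor of the integrated stress response. Of 15 further ATF4 genes, 3 rose after 3x4Gy, Chac1 (2.86), Slc7a11 (1.55) and Ddit4 (0.92), and Vldlr, under the 5 CPM of the naming rule, fell (-1.90). After 1x20Gy at day 5, 4 rose, Chac1 (3.85), Ddit4 (1.53), Slc7a11 (1.34) and Phgdh (1.16), and Atf5 fell. Chac1, which degrades glutathione, had 1.01 ± 0.527 CPM in 1x0Gy and 14.5 ± 6.46 CPM in 1x20Gy (SD, n = 4 and 6). At day 13, 2 of 13 tested rose, Ppp1r15a (0.55) and Atf4 (0.44), and 2 fell, Trib3 (-0.89) and Vldlr (-1.70, again under 5 CPM, at the edge of the threshold).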

How the data were processed

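RNA from sorted CD45.2+ tumour leukocytes was sequenced in 31 libraries, with RNA integrity above 8.5 per the labels. The deposited values are raw read counts per gene. Per the submitters' processing notes, the tools named are bcl2fastq 2.20.0.422, cutadapt 1.5, HISAT2 2.0.4 and HTSeq 0.9.1, and mm10 and GRCm38 are named as builds. Annotation and strand setting are not given in the sources used here. The 5 summary lines of each table were left out of library sizes. Reads outside genes, 1 of these lines, were 5.66% to 32.0% of the reads in genes, outside genes or ambiguous between genes. Groups came from the sample titles.

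Counts were fitted with edgeR 4.0.16 (R 4.3.3; TMM, filterByExpr with a minimum count of 10, quasi-likelihood F test, two-sided, Benjamini-Hochberg over all genes), in 1 fit of the 20 day 5 libraries, 1 of the 11 day 13 libraries and 1 of all 31 for the difference between days. SEs were taken from the F statistic. DESeq2 1.42.0, limma 3.58.1 voom, other scalings, filters, covariates and leaving out each library were alternatives. The fit was also run on counts simulated from its own model, spread and library sizes. That run cannot show how the fit handles data that depart from this model. Exon lengths came from GENCODE annotation and promoter windows from RefSeq, both on GRCm38.

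Members and lists were chosen with earlier results of these data known. Members described library by library were those called in a comparison with mock, plus Trp53, Mdm2 and Mdm4; from other lists up to 4 called genes per comparison were named by size, among those with a mean of at least 5 CPM.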

Additional observations from a re-analysis of the deposited data

Results flagged for a closer look

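Among 60 group-wise checks of the described members, 3 values, in 2 libraries, lay far from the rest of their group, where chance gives about 1 in 20. Mdm4 was at 44.5 CPM in replicate 5 of 1x20Gy at day 13, with the next library at 17.9 CPM; without that library the log2 fold change of Mdm4 was -0.37 (adjusted p = 0.433). Phlda3 was at 10.7 CPM in replicate 3 of 1x0Gy at day 13, with the next at 8.90 CPM, and Apaf1 was at 32.8 CPM in the same library, with the next at 27.7 CPM.

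In 4 mitosis genes the response to 1x20Gy differed between the days by edgeR's test of the difference itself: it was lower at day 13 by -1.03 for Birc5, -1.22 for Ccnb1, -1.31 for Plk1 and -1.29 for Ube2c (log2 scale, adjusted p = 0.045, 0.045, 0.0441 and 0.0451). Of all 12061 genes, 0.423% were called, 26 as lower. Only 2 genes were called lower with upper quartile scaling, 2 with voom and 0 at an adjusted p below 0.01, so the 4 calls did not all hold. Leaving out any 1 library of 1x0Gy, at either day, left 0 to 3 genes called lower, fewer than these 4. The count was 1 or 2 without replicate 2, 4 or 5 of 1x20Gy at day 5, or replicate 1 or 6 at day 13. Without any other library it was above 4, and it reached 48 without replicate 5 of 1x20Gy at day 13. DESeq2 called 94 genes lower and the fit without a filter 34. Day and experiment cannot be told apart here.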

How the results depend on the processing

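Cdkn1a kept its call after 3x4Gy in all 11 alternatives and all 10 fits without 1 library, and Aen did after 1x20Gy at day 5. Members called ranged over fits without 1 library from 2 to 7 (3x4Gy), 3 to 5 (1x20Gy, day 5), 0 to 1 (day 13, Gdf15) and 0 to 0 in the other 3 comparisons; genes called ranged from 1132 to 1815, 556 to 1024, 306 to 1264, 0 to 1 (regimens), 1 to 110 (days) and 0 to 1 (mocks). An adjusted p below 0.01 left 2 members in each day 5 comparison, and 665, 425, 290 (day 13) and 1 (days) genes. With the epithelial and fibroblast covariate 1, 2 and 1 (day 13, Phlda3) members and 149, 63, 196 and 18 (days) genes were called. At day 5 this covariate did not overlap between either irradiated group and its own mock, so calls that ended with it are not thereby explained. At day 13 the lists averaged in it went opposite ways, so it adjusts for neither alone. With only the groups compared, 3x4Gy gave 2 members and 702 genes. In that setting 1x20Gy at day 5 gave 8 members, with Ccng1 added as higher and Perp as lower. With the share of reads outside genes as covariate, 3x4Gy gave 667 genes. At day 13, 1 member (Gdf15) was called by library size scaling (1533 genes), without a filter and with the replicate block. Between days DESeq2 gave 1 member and 228 genes, upper quartile 5, voom 3, no filter 85 and the replicate block 16 genes. DESeq2 and no filter gave 1 gene each between regimens, and 2 and 1 between mocks.

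Whether replicate numbers pair the libraries was not settled. Correlations of same-numbered libraries ran from -0.26 to 0.40. The same-numbered mock was the closest of its group to replicates 1, 2 and 4 of 3x4Gy, but not to replicate 3. For 1x20Gy this was so for replicates 2 and 3 at day 5, not 1 and 4. At day 13 it was so for replicates 2, 3 and 4, not 1. With the replicate block, 4 members were called after 3x4Gy and 5 after 1x20Gy at day 5, where Phlda3 lost its call (log2 fold change 1.26, adjusted p = 0.0699). Scaling by library size moved the median of all genes to -0.10, -0.11 and -0.23 in the 3 comparisons and the share of calls that were higher from 42.3% to 23.1%, 42.9% to 18.2% and 52.4% to 14.5%; upper quartile gave 28.8% and 29.8% at day 5. Mdm2 after 3x4Gy lost its call under library size scaling (adjusted p = 0.0559), and after 1x20Gy Mdm2 and Polk lost theirs under both scalings. Depth limits the 4 members under 5 CPM in every mock group, Eda2r, Tnfrsf23, Ddit4l and Tnfrsf10b. It also bears on called members: Phlda3 held 77 counts in all over the 4 libraries of 1x0Gy at day 5. Perp held 10, 11 and 6 counts in replicates 4, 5 and 6 of 3x4Gy. No called member changed direction. Counted over the described members, comparisons and settings, 97 log2 fold changes had another sign than in the main fit, with no call in either fit.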

Other observations

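Eda2r was too low to be tested in any comparison, and Tnfrsf23 in that of day 13 with mock. Eda2r, the ectodysplasin A2 receptor gene, held 40 counts in all over the 6 libraries of 3x4Gy, 24 over 3x0Gy, 27 over 1x20Gy and 18 over 1x0Gy at day 5. Tnfrsf23, a decoy receptor gene with near relatives beside it, held 26 counts over 7 libraries of 1x20Gy and 13 over 4 of 1x0Gy at day 13.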
